A study of Mus musculus with 2688 samples.

Results

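The comparison described here is that of microglia of the spinal cord between embryonic mice and mice of 3 weeks. It holds 349 of the 2402 cells kept in the whole series, 174 of them embryonic and 175 of 3 weeks. The cells were chosen by their labels alone, as the wells whose replicate label names wild-type spinal cord of either age, and wells with fewer than 500 detected genes or more than 20% mitochondrial counts were left out. The unit of every test is the region sample, the sum of all kept cells with the same replicate label. There were 4 embryonic region samples of 41 to 46 cells and 3 region samples of 3 weeks of 54 to 61 cells.

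Single microglia of several regions of the healthy mouse central nervous system had been sorted into 384-well plates at 3 ages (embryonic, 3 weeks and 16 weeks) and sequenced with Smart-seq2, a full-length method in which each well is 1 library and reads are not collapsed to molecules. All mice were labelled CD1 and wild type, and the labels name no transgene, injury or treatment in either group. The embryonic day and the sex of the mice are not given in the sources used here. Each region sample held 12744518 to 15395067 gene counts. The design text speaks of replicate mice, but no label ties a replicate number to a mouse or litter, so the p-values measure the spread between these 7 samples.

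Microglia are the resident macrophages of brain and spinal cord. They derive from yolk sac progenitors, enter the neural tube early in development, divide and spread through it, and then persist by slow self-renewal. In the adult they depend on signalling through the CSF1 receptor and on TGF-beta, and they express a set of genes called homeostatic, among them the ADP receptor P2ry12 and the membrane protein Tmem119, which set them apart from other macrophages. Microglia of the developing white matter engulf dying cells and myelin debris and express lipid-handling genes.

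The sorted cells carried the RNA of microglia at both ages. The 12 markers used to define microglia summed to 34813 to 42050 CPM (counts scaled to a common library size by edgeR's TMM factors) in the embryonic samples and to 65815 to 72192 CPM at 3 weeks. Markers of several other cell types were low, whereas 3 lists were not, and that of Schwann cells varied widely between embryonic samples. Those of neutrophils summed to at most 11.5 CPM in any of the 7 samples, those of T and NK cells to at most 20.3 CPM and those of monocytes to at most 87.4 CPM. B cell markers summed to 1202 to 1668 CPM in embryonic samples and to 522 to 626 CPM at 3 weeks, mostly from Ighm. Border macrophage markers summed to 363 to 447 and 105 to 171 CPM, mostly from Stab1, and oligodendrocyte and myelin markers to 291 to 486 and 411 to 472 CPM. The embryonic cells lay on 1 plate, together with embryonic cerebellum, and the cells of 3 weeks on another, together with cortex of 16 weeks. Age and plate therefore cannot be told apart in any result below. The counts do not use strand as far as the sources say, so overlapping genes on opposite strands, and gene families with near-identical copies, are uncertain.

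Between the embryonic stage and 3 weeks, 993 of the 13313 genes tested changed (7.46% of genes tested; edgeR quasi-likelihood test, Benjamini-Hochberg adjusted p under 0.05). Of these, 442 rose (3.32%) and 551 fell (4.14%). A rise had a median size of 2.70-fold and a fall one of 3.13-fold, and 47 rises and 72 falls were of 10-fold or more. All 993 had ranges that did not overlap between the ages, as did 3263 of all genes tested (24.5%). In sums over cells, fewer cells with a transcript and less RNA per cell cannot be told apart, and shares of cells with reads are given beside the main genes. The count was 648, 563 and 565 without 3-week replicate 1, 2 or 3, 662 to 788 without 1 embryonic replicate, and 538 when the cells in division were left out. With total counts in place of TMM scaling, 38.4% of the calls were rises, against 44.5% with it. With spinal cord of 16 weeks in the same fit, 536 genes were called and the balance turned, with 296 rises and 240 falls (55.2% rises). That fit shared 526 calls with the 993. Among those it lost were the falls of Apoe, Spp1, Emilin1, Igf2bp3, Cdk1 and Mcm6 and the rises of Cd22 and H2-Aa.

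**Figure D1:**
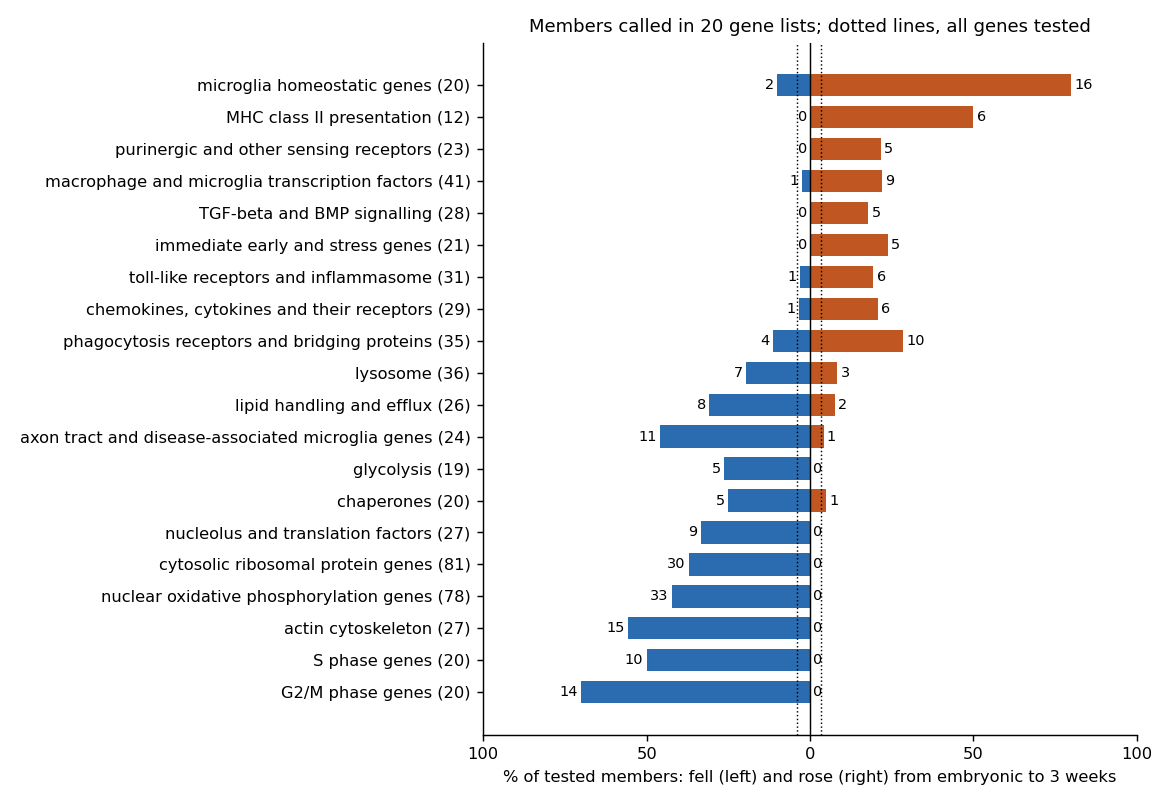
Share of the tested members of 20 gene lists that fell (left, blue) or rose (right, orange) from embryonic to 3-week spinal cord microglia, in percent, with the number of genes at each bar and the number tested in parentheses. Dotted lines mark 4.14% of falls and 3.32% of rises among all 13313 genes tested, and the G2/M list reaches farthest to the left and the homeostatic list farthest to the right.

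Far fewer cells were in division at 3 weeks. A cell was called cycling when it had reads from at least 5 of 20 genes of the G2 and M phases, after every cell was thinned to 40000 gene reads so that depth could not set the call (16 embryonic cells and 4 cells of 3 weeks were too shallow and were left out). The share of cycling cells was 21.4, 36.4, 28.9 and 38.2% in embryonic replicates 1 to 4 and 1.72, 3.39 and 3.70% in 3-week replicates 1 to 3. In cells, these shares were 9 of 42, 16 of 44, 11 of 38 and 13 of 34 against 1 of 58, 2 of 59 and 2 of 54. Every embryonic sample lay above every sample of 3 weeks, and the means were 31.2% ± 7.67 (SD, n = 4) and 2.94% ± 1.06 (SD, n = 3). The exact two-sided permutation test over the 35 ways to assign the 7 samples gave p = 0.0286, the smallest value it can give. None of the 28 blank wells had reads from 5 of these genes. The other groups of both plates lay in the same order, with 19.3% in embryonic cerebellum and 1.24% in cortex of 16 weeks.

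**Figure D2:**
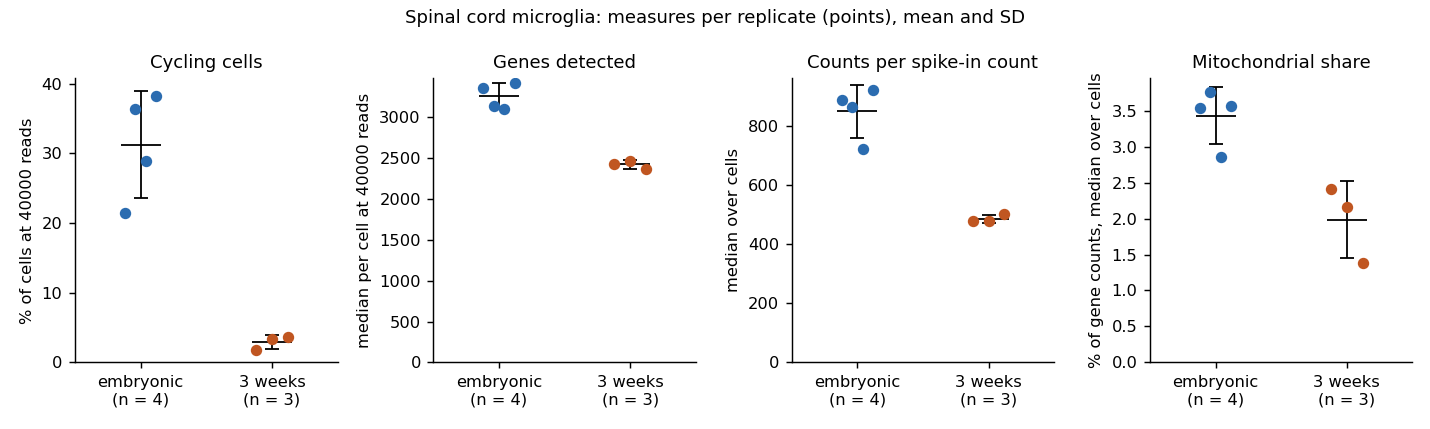
Measures of spinal cord microglia per replicate (points), with the mean and SD of each age (bars): the share of cycling cells in percent, the median number of genes detected per cell at 40000 reads, the median ratio of gene counts to spike-in counts, and the median mitochondrial share of gene counts in percent. In all panels the 4 embryonic points (blue) lie above the 3 points of 3 weeks (orange), and cycling cells average 31.2% and 2.94%.

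All 20 tested genes of the S phase list and all 20 of the G2/M list had a lower mean at 3 weeks, and 10 and 14 of them fell past the threshold, with none rising (list medians of -2.33 and -2.59 on the log2 scale, against 0.02 over all genes tested). Among the genes that copy DNA, Mcm5, a subunit of the replicative helicase, had 306, 232, 346 and 423 CPM in embryonic and 20.3, 38.5 and 15.8 CPM in 3-week replicates. It was 13.1-fold lower at 3 weeks (log2 change -3.71 ± 0.37 SE, edgeR adjusted p = 5.30e-04). Mcm6, another subunit of that helicase, had 294, 254, 344 and 225 CPM in embryonic and 49.1, 36.5 and 24.6 CPM in 3-week replicates, and Gins2, which activates it, had 41.6, 31.1, 32.3 and 42.9 CPM in embryonic and 5.10, 3.55 and 1.04 CPM in 3-week replicates. The ranges of all 3 genes were far apart, and each was high in all 4 embryonic samples. Rrm2, the regulatory subunit of the enzyme that makes deoxynucleotides, had 68.3, 200.008, 145 and 274 CPM in embryonic and 19.4, 7.10 and 33.5 CPM in 3-week replicates (log2 change -3.10 ± 0.62 SE, edgeR adjusted p = 0.0178). Embryonic replicate 1 was the lowest of its age both in Rrm2 and in the share of cycling cells.

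Genes of mitosis were also lower in every sample of 3 weeks. Cdk1, the kinase that drives entry into mitosis, had 127, 255.44, 119 and 269 CPM in embryonic and 32.4, 33.5 and 13.5 CPM in 3-week replicates (log2 change -2.86 ± 0.45 SE, edgeR adjusted p = 0.00603). Aurkb, a kinase of chromosome alignment, had 108, 132, 73.6 and 146 CPM in embryonic and 4.89, 16.2 and 16.0 CPM in 3-week replicates, and Birc5, its partner in the chromosomal passenger complex, had 29.6, 126, 56.7 and 112 CPM in embryonic and 5.31, 11.3 and 3.67 CPM in 3-week replicates. Mki67, the proliferation marker Ki-67, had 80.5, 420.3, 143 and 388 CPM in embryonic and 53.5, 61.0 and 36.5 CPM in 3-week replicates, and Top2a, which untangles DNA, had 87.5, 396, 162 and 378 CPM in embryonic and 15.6, 46.8 and 62.4 CPM in 3-week replicates. Replicate 1 was the lowest embryonic sample for Mki67, Top2a and Birc5, and embryonic replicates 2 and 4 were the highest. The calls of Mki67 (adjusted p = 0.0367) and Top2a (adjusted p = 0.0377) were lost in 5 and 6 of the 7 edgeR fits that left out 1 sample, with adjusted p up to 0.125 and 0.102. Mki67 kept its call only without embryonic replicate 1 or 3 and Top2a only without embryonic replicate 1. Rrm2 lost its call without 3-week replicate 1 (adjusted p = 0.0673). In every fit without cycling cells, the cells left out were called by the same rule on the counts before thinning. Depth could thus enter that call, and shallow cells were judged too. Without these cells, 3 of the S phase genes and 1 of the G2/M genes were still called, and the list medians were -1.96 and -0.48. The cells were removed for their reads of these same G2/M genes, so the smaller change of that list is fixed by the choice of cells and is no test.

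Other regulators of the cell cycle moved in both directions, with 4 falls and 1 rise among 32 tested. Cdk4, the G1 kinase, had 382, 421, 336 and 508 CPM in embryonic and 138, 138 and 76.4 CPM in 3-week replicates and was 3.50-fold lower at 3 weeks (log2 change -1.81 ± 0.25 SE, edgeR adjusted p = 0.0029). Cdkn1b, the inhibitor p27, was the gene that rose, with 23.2, 19.4, 29.8 and 15.2 CPM in embryonic and 71.5, 65.1 and 68.5 CPM in 3-week replicates. Its adjusted p of 0.0197 was lost without embryonic replicate 2 and without each replicate of 3 weeks (up to 0.0673). The list of chromatin and DNA methylation regulators was split, with 17 of 30 tested genes lower and 13 higher in the mean at 3 weeks. Of these, 5 fell and none rose past the threshold, and among the 5 were Uhrf1, which carries DNA methylation over to the new strand (52.9, 62.3, 128 and 78.4 CPM in embryonic and 10.8, 3.70 and 11.8 CPM in 3-week replicates), and Cbx5, a heterochromatin protein (175, 247, 210.3 and 243 CPM in embryonic and 51.3, 45.9 and 75.1 CPM in 3-week replicates). Both were high in all embryonic samples, Uhrf1 with a wide spread. Without the cycling cells edgeR called no member of this list, and DESeq2 called 11 on all cells.

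Genes of fetal growth had 3 falls and no rise among 15 tested. Igf2bp3, a fetal RNA-binding protein, had 48.4, 78.8, 35.7 and 71.8 CPM in embryonic and 4.06, 4.61 and 5.75 CPM in 3-week replicates and was 12.2-fold lower at 3 weeks (log2 change -3.61 ± 0.45 SE, edgeR adjusted p = 0.00179). Reads of it were found in 61 of 158 embryonic cells and in 7 of 171 cells of 3 weeks at equal depth, and in none of the 28 blank wells. Cd34, a surface protein of blood progenitors, went the other way and had 355, 275, 345 and 288 CPM in embryonic and 756, 735 and 770.1 CPM in 3-week replicates (log2 change 1.26 ± 0.13 SE, edgeR adjusted p = 6.28e-04).

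Promoters of 4 of these genes are shown because their transcripts, all called falls of the S and G2/M lists with the most embryonic CPM per kilobase among members with a RefSeq promoter, fell together, and because 3 short sequences are known from promoters of such genes: the E2F site (TTTGGCGC or TTTCGCGC), the CCAAT box and the cell cycle homology region (CHR, TTTGAA or TTCGAA). Only genes with at least 1 of these sequences in the window were eligible to be shown, so a match in each of the 4 was fixed by the choice. Each run is the 250 bases before the start of the RefSeq gene model on its own strand (GRCm38.p6), with matches on either strand in capitals. An E2F match and a CCAAT match never shared letters in these 4, but 2 overlapping E2F matches on opposite strands form 1 run of capitals in Mcm5 and in Mcm6.
Mcm5, chr8:75109259-75109508, plus strand: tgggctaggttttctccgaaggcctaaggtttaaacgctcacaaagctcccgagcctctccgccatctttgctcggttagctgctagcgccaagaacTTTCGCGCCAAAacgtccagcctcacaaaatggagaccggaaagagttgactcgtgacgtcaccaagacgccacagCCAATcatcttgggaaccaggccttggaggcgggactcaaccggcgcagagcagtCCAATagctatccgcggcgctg
Rrm2, chr12:24708004-24708253, plus strand: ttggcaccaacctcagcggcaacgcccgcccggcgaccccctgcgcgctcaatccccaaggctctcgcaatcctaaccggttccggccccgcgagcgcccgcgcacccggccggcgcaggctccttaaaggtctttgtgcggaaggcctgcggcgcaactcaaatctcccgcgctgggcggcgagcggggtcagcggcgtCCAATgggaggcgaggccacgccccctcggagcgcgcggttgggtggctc
Mcm6, chr1:128359706-128359955, minus strand: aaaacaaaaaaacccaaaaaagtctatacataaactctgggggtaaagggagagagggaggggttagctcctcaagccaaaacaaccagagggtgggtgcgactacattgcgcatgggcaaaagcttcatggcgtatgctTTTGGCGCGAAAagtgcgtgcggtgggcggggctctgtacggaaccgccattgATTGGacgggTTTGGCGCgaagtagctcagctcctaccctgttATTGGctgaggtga
Cdk1, chr10:69352913-69353162, minus strand: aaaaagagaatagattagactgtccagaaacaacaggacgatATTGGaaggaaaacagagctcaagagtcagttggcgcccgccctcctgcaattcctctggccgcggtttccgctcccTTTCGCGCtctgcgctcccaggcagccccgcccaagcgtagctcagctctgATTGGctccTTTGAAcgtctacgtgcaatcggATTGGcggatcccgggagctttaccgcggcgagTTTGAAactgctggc
The window of Cdk1 held CHR matches 71 and 15 bases before the start, CCAAT matches at 208, 80 and 48 bases and an E2F match at 131 bases. Distances are to the RefSeq start. Cdk1 as counted reaches to position 69352938 of chr10, so the match at 15 bases lies within the counted gene. Those of Mcm5 and Mcm6 held E2F and CCAAT matches and no CHR match, and that of Rrm2 held 1 CCAAT match, 50 bases before the start. Over windows of 300 bases, the CHR was found in 12 of the 16 G2/M genes with a RefSeq promoter (75%), in 3 of 17 S phase genes (17.6%) and in 21.7% of the 27025 genes of the table. The E2F letters were found in 1 of 16 G2/M genes, in 7 of 17 S phase genes (41.2%) and in 0.929% of all genes. The CCAAT box was found in 14 of 16, in 12 of 17 and in 41.1% of all. Among the 9317 genes tested that had a RefSeq promoter, the shares were 16.5% (CHR), 1.86% (E2F) and 43.1% (CCAAT). In the same order they were 18.8, 3.61 and 47.2% among 415 called falls. Among 320 called rises they were 17.8, 0.625 and 47.2%. These are matches of letters, and no binding was measured.

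Homeostatic genes were the list with the largest share of rises. Of 20 genes, all tested, 16 rose and 2 fell, with a median of 1.09 on the log2 scale. Together they took up 5.98, 4.90, 5.35 and 4.11% of the counts of the median cell in embryonic replicates 1 to 4 and 12.5, 13.3 and 12.8% at 3 weeks. The difference ran through nearly the whole population of cells: 3 of 175 cells of 3 weeks lay below the embryonic median of 5.17%, and no embryonic cell lay above the 3-week median of 12.8%. Embryonic cells that were cycling had medians of 6.06, 4.53, 4.16 and 3.84% in replicates 1 to 4, and the embryonic cells that were not had 6.18, 5.21, 6.68 and 6.04%, so that both lay below the 3-week medians.

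**Figure D3:**
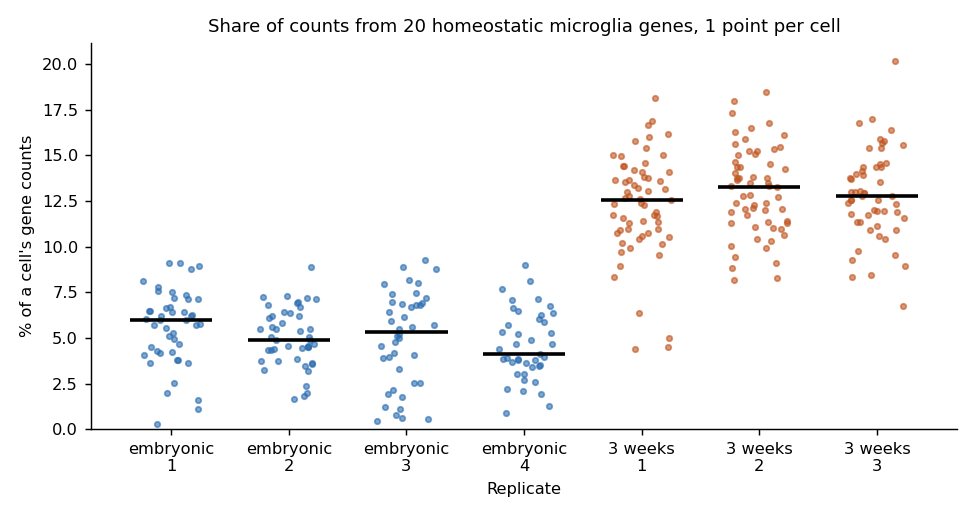
Share of the gene counts of each cell, in percent, that came from the 20 homeostatic genes, with 1 point per cell, 1 column per replicate and black lines at the medians. The 4 embryonic columns (blue) have medians between 4.11 and 5.98% and the 3 columns of 3 weeks (orange) between 12.5 and 13.3%.

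The rises within the list ranged from under 2-fold to almost 9-fold. Selplg, the P-selectin ligand (chr5:113818536-113832644), had 972, 677, 937 and 783 CPM in embryonic and 7745, 6858 and 7642 CPM in 3-week replicates. It was 8.80-fold higher (log2 change 3.14 ± 0.14 SE, edgeR adjusted p = 2.29e-05), and its reads were found in 84.2 to 88.6% of embryonic cells, in 100% of cells of 3 weeks and in 11 of 28 blank wells. Gpr34, a receptor for lysophosphatidylserine, had 1367, 1137, 1697 and 1402 CPM in embryonic and 4604, 5531 and 5566 CPM in 3-week replicates (log2 change 1.90 ± 0.14 SE, edgeR adjusted p = 1.15e-04). P2ry12 (chr3:59216272-59262871) had 5069, 4270.0, 5092 and 3906 CPM in embryonic and 9439, 11607 and 10913 CPM in 3-week replicates. P2ry13, the neighbouring ADP receptor, had 1484, 1292, 1596 and 1338 CPM in embryonic and 3898, 3729 and 4287 CPM in 3-week replicates. All 4 genes were within narrow ranges at each age, and none of the embryonic values came near those of 3 weeks. Csf1r, the receptor of the survival factors CSF1 and IL-34, rose less, with 10671, 9993, 10974 and 8441 CPM in embryonic and 14702, 16125 and 15424 CPM in 3-week replicates, and Cx3cr1, the fractalkine receptor, was 1.96-fold higher. Sall1, a transcription factor that within the macrophage lineage is typical of microglia, had 354, 344, 381 and 288 CPM in embryonic and 524, 471 and 498 CPM in 3-week replicates. Its adjusted p of 0.0425 (edgeR) was lost in 6 of the 7 fits without 1 sample, all but the one without embryonic replicate 3, with values up to 0.135.

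The 2 homeostatic genes that fell were Crybb1, a crystallin, and Fcrls, an Fc receptor-like protein. Fcrls (chr3:87250758-87263738) had 5451, 5037, 5021 and 5648 CPM in embryonic and 2532, 3104 and 2018 CPM in 3-week replicates, with no overlap (log2 change -1.05 ± 0.14 SE, edgeR adjusted p = 0.00221). Crybb1 had 654, 387, 741 and 549.7 CPM in embryonic and 81.0, 68.8 and 84.5 CPM in 3-week replicates, and at equal depth its reads were found in 134 of 158 embryonic cells and in 87 of 171 cells of 3 weeks. Both were lower again in spinal cord of 16 weeks, where Fcrls averaged 488 CPM and Crybb1 averaged 45.1 CPM, on a scale set over all 51 region samples and with no test.

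**Figure D4:**
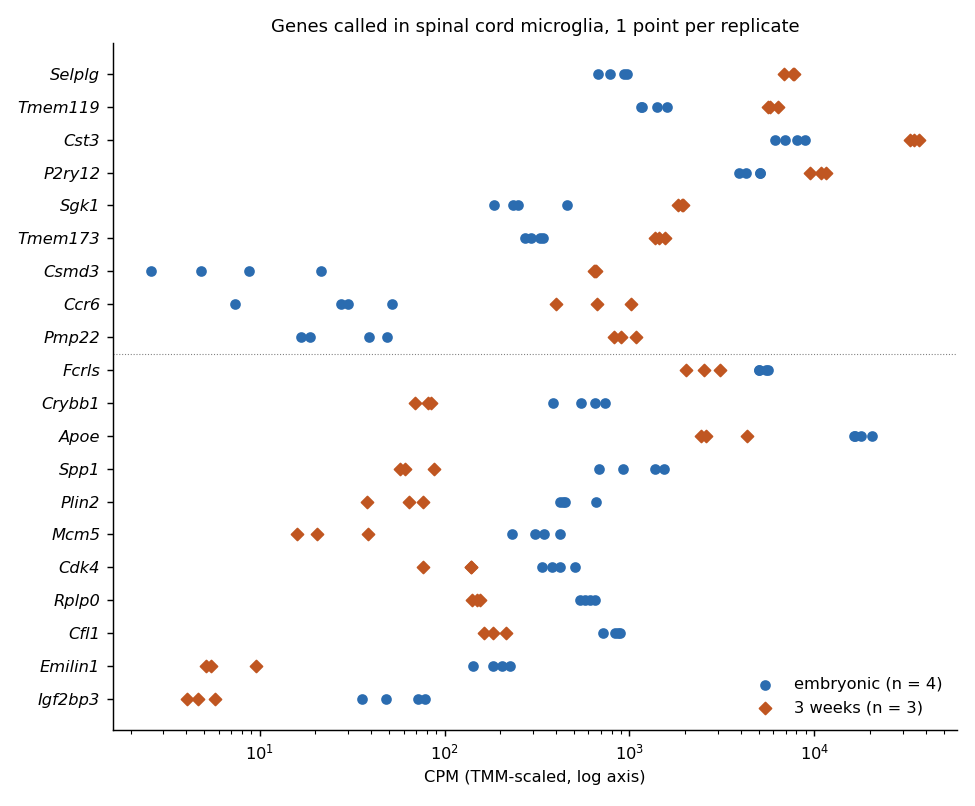
CPM of 20 called genes in each replicate on a log axis, with 4 embryonic samples (blue circles) and 3 samples of 3 weeks (orange diamonds) in each row. The 9 genes above the dotted line rose and the 11 below it fell, and in no row do the ages overlap.

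Receptors with which microglia sense their surroundings had 5 rises and no fall among 23 tested. Lpar6, a receptor for lysophosphatidic acid, had 138, 109.7, 108 and 94.5 CPM in embryonic and 387, 476 and 519 CPM in 3-week replicates (log2 change 2.03 ± 0.18 SE, edgeR adjusted p = 3.22e-04). Gpr183, which senses oxysterols, had 48.9, 138, 111 and 85.2 CPM in embryonic and 551, 699 and 558 CPM in 3-week replicates, with embryonic replicate 1 lowest. Cysltr1, a leukotriene receptor, had 61.6, 64.8, 76.9 and 49.4 CPM in embryonic and 151, 153 and 211.84 CPM in 3-week replicates. All 3 genes lay higher in each sample of 3 weeks than in any embryonic sample.

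Growth factor signalling was mixed, with 5 rises and 2 falls of 26. Il7r, the interleukin-7 receptor, had 22.2, 15.0, 38.7 and 3.91 CPM in embryonic and 146, 207 and 257 CPM in 3-week replicates (log2 change 3.35 ± 0.62 SE, edgeR adjusted p = 0.0124), and Csf3r, the G-CSF receptor, had 404, 386, 372 and 336 CPM in embryonic and 676, 706 and 632 CPM in 3-week replicates (log2 change 0.84 ± 0.12 SE, edgeR adjusted p = 0.00296). Igf1, a growth factor made by microglia of developing white matter, had 45.2, 32.7, 86.9 and 47.3 CPM in embryonic and 3.50, 0.0756 and 0 CPM in 3-week replicates. Its fall (adjusted p = 0.0439, edgeR) was lost in all fits without 1 sample except that without 3-week replicate 1, with values up to 0.0941. Reads of Igf1 were found in 31 of 158 embryonic cells, in 2 of 171 cells of 3 weeks and in 1 of 28 blank wells.

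The TGF-beta and BMP list had 5 rises and no fall among 28 tested. Tgfbr1, the signalling receptor of TGF-beta, had 716, 638, 841 and 531 CPM in embryonic and 1231, 1544 and 1426 CPM in 3-week replicates (log2 change 1.04 ± 0.16 SE, edgeR adjusted p = 0.00518). Itgav, the integrin chain that helps to release TGF-beta from its latent form, had 35.7, 20.5, 30.8 and 53.1 CPM in embryonic and 235, 179.6 and 211.999 CPM in 3-week replicates (log2 change 2.58 ± 0.32 SE, edgeR adjusted p = 0.00174). Skil, which restrains the pathway, had 113, 134, 109 and 115 CPM in embryonic and 215.02, 259.8 and 241 CPM in 3-week replicates, and Acvr1, a BMP receptor, had 12.1, 19.1, 23.8 and 15.6 CPM in embryonic and 54.3, 80.4 and 81.4 CPM in 3-week replicates. A receptor and a restraining factor thus rose in the same samples, and neither overlapped between the ages.

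Of 41 transcription factors of macrophages and microglia, 9 rose and 1 fell. Mef2a had 132, 148, 206 and 204 CPM in embryonic and 706, 676 and 774 CPM in 3-week replicates and was 4.17-fold higher (log2 change 2.06 ± 0.18 SE, edgeR adjusted p = 3.29e-04). Nfia, a factor better known from glia, had 10.4, 0.836, 5.55 and 2.88 CPM in embryonic and 81.6, 81.3 and 105 CPM in 3-week replicates (log2 change 4.17 ± 0.72 SE, edgeR adjusted p = 0.00862), and its reads were found in 16 of 158 embryonic cells, 71 of 171 cells of 3 weeks and 2 of 28 blank wells. Klf3, a repressor of the Krüppel-like family, had 92.3, 113, 118 and 74.2 CPM in embryonic and 279, 193 and 277 CPM in 3-week replicates. Among the other members that rose were Irf5, Cebpa, Klf6 and Zeb2, with log2 changes from 0.65 for Zeb2 to 1.30 for Cebpa. The list had 6 rises without the cycling cells and 5 to 9 with 1 sample left out.

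Many genes for making proteins and energy fell and none rose. Of 81 tested genes of cytosolic ribosomal proteins, 30 fell and none rose, with a median of -1.21 on the log2 scale, and their summed level was 8965 to 10346 CPM in embryonic samples and 2996 to 3407 CPM at 3 weeks. Rplp0, of the ribosomal stalk, had 574, 608, 652 and 543 CPM in embryonic and 156, 149.8 and 140.0 CPM in 3-week replicates and was 4.00-fold lower (edgeR adjusted p = 1.02e-04). Rpl4 had 1239, 1325, 1407 and 1265 CPM in embryonic and 405, 409 and 364 CPM in 3-week replicates and Rps3 had 1037, 1143, 1158 and 1096 CPM in embryonic and 325, 347 and 329 CPM in 3-week replicates, both within narrow ranges at each age. Many pseudogenes resemble these genes, and counts could be split between copies. Of 27 genes of the nucleolus and of translation, 9 fell and none rose: Eef2, the translocase of elongation, had 1209, 1192, 1284 and 1078 CPM in embryonic and 493, 481 and 449.6 CPM in 3-week replicates (log2 change -1.33 ± 0.11 SE, edgeR adjusted p = 2.13e-04), and Npm1, a nucleolar chaperone, had 162, 234, 224 and 186 CPM in embryonic and 74.3, 49.9 and 31.5 CPM in 3-week replicates. Of 78 nuclear genes of oxidative phosphorylation, 33 fell and none rose (median -1.21), for example Cox4i1, a subunit of cytochrome oxidase, with 534, 461, 508 and 423 CPM in embryonic and 115, 123 and 129.8 CPM in 3-week replicates (log2 change -1.97 ± 0.15 SE, edgeR adjusted p = 1.15e-04). Their summed level was 9333 to 10075 CPM against 4591 to 4921 CPM. The 33 falls were 17 to 27 with 1 sample left out, lowest without 3-week replicate 3, and 18 without the cycling cells.

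Glycolysis and the chaperones followed. Pkm, pyruvate kinase, had 428, 540.1, 585 and 590.0 CPM in embryonic and 129, 146 and 71.4 CPM in 3-week replicates (log2 change -2.22 ± 0.26 SE, edgeR adjusted p = 0.0012), and Aldoa, aldolase, had 649, 889, 740.2 and 690.0 CPM in embryonic and 252, 280.2 and 190.0 CPM in 3-week replicates, among 5 falls and no rise in 19 genes tested. Of 20 chaperone genes, 5 fell, among them Cct5 of the chaperonin that folds actin and tubulin (409, 389.8, 517 and 464 CPM in embryonic and 183, 202 and 206 CPM in 3-week replicates). Hspa5, the chaperone of the endoplasmic reticulum, was the only chaperone that rose, with 640.0, 708, 539.5 and 691 CPM in embryonic and 1323, 1471 and 1545 CPM in 3-week replicates (log2 change 1.17 ± 0.12 SE, edgeR adjusted p = 7.17e-04). It lay below 710 CPM in every embryonic sample and above 1300 CPM in every sample of 3 weeks.

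The actin cytoskeleton had 15 falls and no rise among 27 tested. Actb, beta-actin, had 16634, 16464, 15485 and 14619 CPM in embryonic and 7591, 7152 and 6485 CPM in 3-week replicates (log2 change -1.16 ± 0.08 SE, edgeR adjusted p = 1.15e-04), Tmsb4x, which binds free actin, had 4964, 5368, 5264 and 4987 CPM in embryonic and 1844, 1747 and 1546 CPM in 3-week replicates (log2 change -1.59 ± 0.09 SE, edgeR adjusted p = 6.68e-05), and Cfl1, cofilin, had 831, 867, 894 and 718 CPM in embryonic and 215.72, 182 and 162 CPM in 3-week replicates (log2 change -2.15 ± 0.15 SE, edgeR adjusted p = 1.14e-04). The others that fell included Arpc2 of the Arp2/3 complex, with 858, 742, 723 and 671 CPM in embryonic and 385, 355 and 294 CPM in 3-week replicates, and Capzb, which caps filaments, with 785, 762, 802 and 721 CPM in embryonic and 361, 356 and 294.72 CPM in 3-week replicates. Each of these 5 was expressed within narrow ranges at each age.

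Measures of RNA amount and quality moved in the same direction as these lists. Cells detected 3359, 3142, 3105 and 3422 genes (medians at 40000 reads) in embryonic replicates 1 to 4 and 2432, 2470.0 and 2365 genes at 3 weeks. Gene counts per spike-in count had medians of 888, 863, 720.4 and 920.4 in embryonic samples and 478, 477 and 500.2 at 3 weeks. The mitochondrial share of counts was 3.54, 3.76, 2.86 and 3.57% against 2.41, 2.16 and 1.39%. For each of the 3 measures the ages did not overlap and the exact two-sided permutation test gave p = 0.0286, the smallest possible, also after adjustment over the 4 measures of cells. With the counts as deposited, in which some wells hold the reads of others, the difference in genes detected was -238 genes in place of -834, with an exact permutation p of 0.771. On the embryonic plate, cerebellum had 970 counts per spike-in count, and on the plate of 3 weeks, cortex of 16 weeks had 427, so these values split by plate as they split by age. Their part in the falls of the ribosomal, mitochondrial and actin genes was not tested.

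Lipid genes had 8 falls and 2 rises among 26 tested. Apoe, the main lipid carrier of the central nervous system (chr7:19696109-19699188), was the gene with the most reads per kilobase in embryonic cells, with 16571, 17863, 20486 and 16474 CPM in embryonic and 2424, 4327 and 2596 CPM in 3-week replicates (log2 change -2.52 ± 0.21 SE, edgeR adjusted p = 2.13e-04). At equal depth its reads were found in all 158 embryonic cells, in 129 of 171 cells of 3 weeks and in 10 of 28 blank wells. The cholesterol exporters Abca1 and Abcg1 fell too: Abca1 had 733, 603, 689 and 807 CPM in embryonic and 221, 54.0 and 138 CPM in 3-week replicates, and Abcg1 had 825, 723, 754 and 887 CPM in embryonic and 156, 154 and 75.3 CPM in 3-week replicates (log2 change -2.63 ± 0.26 SE, edgeR adjusted p = 5.30e-04). Plin2, which coats lipid droplets, had 450.4, 435, 419 and 656 CPM in embryonic and 76.6, 64.3 and 37.9 CPM in 3-week replicates (log2 change -3.04 ± 0.29 SE, edgeR adjusted p = 4.66e-04), and Scd2, a desaturase of fatty acids, had 689, 577, 763 and 578 CPM in embryonic and 105, 151 and 93.4 CPM in 3-week replicates. Lpl, lipoprotein lipase, had 176, 170.1, 229.6 and 200.35 CPM in embryonic and 76.6, 23.4 and 44.7 CPM in 3-week replicates, and it lost its call without 3-week replicate 3 (edgeR adjusted p = 0.0574). The enzymes of cholesterol synthesis did not share this pattern, with 2 rises and no fall among 22 tested, and edgeR called neither without 3-week replicate 2 or without 3-week replicate 3. Of the 2 lipid genes that rose, Thrsp, a regulator of fatty acid synthesis, went from at most 0.476 CPM in embryonic samples to 58.7, 61.5 and 62.5 CPM at 3 weeks.

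Genes of the axon tract and disease-associated states of microglia had 11 falls and 1 rise among 24 tested. Spp1, osteopontin (chr5:104435118-104441050), had 920.5, 1547, 1378 and 686 CPM in embryonic and 87.5, 57.3 and 60.8 CPM in 3-week replicates and was 16.5-fold lower (log2 change -4.05 ± 0.33 SE, edgeR adjusted p = 2.13e-04). Its reads came from a minority of cells at both ages, 56 of 158 and 17 of 171 at equal depth, with none in the 28 blank wells. Ctsb, a lysosomal protease, had 11737, 10891, 12079 and 8232 CPM in embryonic and 3753, 2811 and 3362 CPM in 3-week replicates (log2 change -1.70 ± 0.15 SE, edgeR adjusted p = 3.40e-04), and Lyz2, lysozyme, had 459.6, 266, 568 and 564 CPM in embryonic and 83.1, 117 and 139 CPM in 3-week replicates (log2 change -2.04 ± 0.30 SE, edgeR adjusted p = 0.00379). Lgals1, a galectin, had 96.4, 65.7, 91.1 and 118 CPM in embryonic and 21.4, 4.23 and 5.11 CPM in 3-week replicates, and it lost its call without 3-week replicate 3 (edgeR adjusted p = 0.0563). Cd9, a tetraspanin, was the member that rose, with 537, 465, 530.0 and 431 CPM in embryonic and 963, 997 and 845 CPM in 3-week replicates. The list had 4 to 9 falls with 1 sample left out and 7 without the cycling cells.

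Lysosomal genes moved in both directions, with 3 rises and 7 falls among 36 tested. Cathepsins C, H and S rose. Ctss had 4709, 4788, 5105 and 4324 CPM in embryonic and 12160.0, 11014 and 11086 CPM in 3-week replicates (log2 change 1.27 ± 0.08 SE, edgeR adjusted p = 8.17e-05), and Ctsh had 287, 310.0, 329.9 and 303 CPM in embryonic and 1153, 1037 and 821 CPM in 3-week replicates (log2 change 1.71 ± 0.14 SE, edgeR adjusted p = 2.13e-04), with no overlap in either. Cathepsin D, Ctsd, had 12794, 11105, 11794 and 10008 CPM in embryonic and 9506, 11439 and 10644 CPM in 3-week replicates, and the legumain gene Lgmn had 9670.1, 9734, 10575 and 8545 CPM in embryonic and 9189, 9954 and 8637 CPM in 3-week replicates. Both overlapped between the ages and were not called, with log2 changes of -0.12 ± 0.10 and -0.06 ± 0.09. Lamp1, a protein of the lysosomal membrane, fell to 1.77-fold lower levels (2748, 2854, 2702 and 2229.9 CPM in embryonic and 1594, 1457 and 1424 CPM in 3-week replicates).

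Receptors and bridging proteins of phagocytosis had 10 rises and 4 falls among 35 tested. The receptor Mertk, which binds phosphatidylserine through a bridge, had 387, 433, 345 and 325 CPM in embryonic and 744, 684 and 891 CPM in 3-week replicates (log2 change 1.05 ± 0.15 SE, edgeR adjusted p = 0.003), whereas its ligand Gas6 had 511, 605, 926 and 759 CPM in embryonic and 173, 149 and 295.36 CPM in 3-week replicates (log2 change -1.77 ± 0.29 SE, edgeR adjusted p = 0.00675). Elmo1, which links such receptors to Rac, had 405, 333, 416 and 307 CPM in embryonic and 1099, 1057 and 1124 CPM in 3-week replicates (log2 change 1.58 ± 0.14 SE, edgeR adjusted p = 2.55e-04), whereas Rac2, a GTPase of the Rac family, had 911, 1126, 881 and 742 CPM in embryonic and 336, 215.26 and 332 CPM in 3-week replicates (log2 change -1.64 ± 0.20 SE, edgeR adjusted p = 0.00172). Mertk and Gas6 thus moved in opposite directions in the same 7 samples, as did Elmo1 and Rac2. Cd14, the co-receptor for lipopolysaccharide, had 107, 98.3, 114 and 112 CPM in embryonic and 445, 283 and 579 CPM in 3-week replicates. Cd22, a lectin that restrains phagocytosis, had 1 read in the embryonic samples together and 580 reads at 3 weeks, a ratio of CPM of 825 (95% counting interval 147 to 32642). Reads are PCR copies and not independent molecules, so this interval and the others of this kind cover counting error only and are too narrow. With total counts in place of TMM the list had 9 rises and 8 falls.

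Complement had 1 rise and 3 falls among 12 tested. The subunits of C1q were lower at 3 weeks: C1qb had 5482, 5376, 5769 and 4634 CPM in embryonic and 3457, 3104 and 3573 CPM in 3-week replicates (log2 change -0.65 ± 0.10 SE, edgeR adjusted p = 0.00463), and C1qc had 3449, 3490.1, 4082 and 3218 CPM in embryonic and 1953, 1842 and 2116 CPM in 3-week replicates (log2 change -0.85 ± 0.11 SE, edgeR adjusted p = 0.00169). The ranges did not overlap in either gene.

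Genes of antigen presentation by MHC class II rose in 6 of 12 tested cases, with no fall and a median of 2.18 on the log2 scale. Ctss, which trims the invariant chain, was counted in this list and in that of the lysosome. Cd74, the invariant chain, had 12.4, 32.1, 24.2 and 14.4 CPM in embryonic and 178, 167 and 62.0 CPM in 3-week replicates (log2 change 2.71 ± 0.47 SE, edgeR adjusted p = 0.00892), and H2-Ab1, a chain of the class II molecule, had 5.57, 4.32, 0.159 and 9.81 CPM in embryonic and 62.7, 111 and 88.1 CPM in 3-week replicates. H2-Aa, its partner chain, had 3 reads in the embryonic samples and 495 at 3 weeks, a ratio of CPM of 235 (95% counting interval 79.8 to 1142), and its reads were found in 4 of 171 cells of 3 weeks at equal depth. H2-Ob, which modulates peptide loading, had 7.96, 8.29, 0 and 15.0 CPM in embryonic and 148, 159 and 162 CPM in 3-week replicates. Embryonic values were near 0 in H2-Aa and highest in replicate 4 in H2-Ab1 and H2-Ob, and 3-week replicate 3 was the lowest of its age for Cd74 and H2-Aa. H2-Aa lost its call without 3-week replicate 2 (edgeR adjusted p = 0.0822), and H2-Ab1 (up to 0.0755) and H2-Ob (up to 0.0846) lost theirs without embryonic replicate 1 or 2 and without each replicate of 3 weeks. Genes of MHC class I had 1 rise among 16.

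In the type I interferon list all 23 tested genes had a higher mean at 3 weeks, with a median of 1.97. Of these, 9 had an unadjusted p under 0.05 (edgeR), as did 2920 of all 13313 genes tested in either direction. Ranges did not overlap between the ages in 5 of the 23, against 24.5% of all genes tested. Past the threshold, edgeR called 1 of the 23 (4.35%), against 3.32% of rises among all genes tested. The receptor chain Ifnar1 was the member called by edgeR, and DESeq2 called 6 (Ifnar1 211, 158, 143 and 140.1 CPM in embryonic and 309, 307 and 263 CPM in 3-week replicates). Its adjusted p of 0.027 (edgeR) was lost in all fits without 1 sample except that without embryonic replicate 1, with values up to 0.0948. The summed level of the list was 476 to 568 CPM in embryonic samples and 891 to 1538 CPM at 3 weeks, without overlap.

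Chemokines, cytokines and their receptors had 6 rises and 1 fall among 29 tested. Ccr6, a chemokine receptor known from lymphocytes, had 30.1, 7.31, 51.6 and 27.4 CPM in embryonic and 667, 398 and 1024 CPM in 3-week replicates (log2 change 4.58 ± 0.58 SE, edgeR adjusted p = 0.00192). Its reads were found in 2.27 to 13.2% of embryonic cells, in 44.1 to 88.9% of cells of 3 weeks and in 2 of 28 blank wells. Ifngr1, the ligand-binding chain of the interferon-gamma receptor, had 854, 873, 1021 and 959 CPM in embryonic and 2081, 2123 and 2620.2 CPM in 3-week replicates (log2 change 1.30 ± 0.12 SE, edgeR adjusted p = 3.40e-04), and Il1a, interleukin-1 alpha, had 94.2, 35.3, 97.1 and 90.7 CPM in embryonic and 350.0, 316 and 209 CPM in 3-week replicates (log2 change 1.88 ± 0.35 SE, edgeR adjusted p = 0.0125). Cxcr2, a chemokine receptor of neutrophils, was the gene that fell, with 98.5, 103, 65.6 and 77.8 CPM in embryonic and 0.979, 1.36 and 0 CPM in 3-week replicates (log2 change -6.76 ± 0.89 SE, edgeR adjusted p = 0.00218). Its reads came from 36 of 158 embryonic cells and 2 of 171 cells of 3 weeks. The neutrophil markers in the same embryonic samples summed to at most 2.14 CPM.

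Pattern recognition receptors had 6 rises and 1 fall among 31 tested. Tlr3, which detects double-stranded RNA, had 23.5, 19.9, 18.2 and 14.7 CPM in embryonic and 150.3, 155 and 177 CPM in 3-week replicates (log2 change 3.08 ± 0.26 SE, edgeR adjusted p = 2.24e-04), and Tlr13, which detects bacterial ribosomal RNA, had 188, 159, 212.98 and 131 CPM in embryonic and 396, 602 and 602 CPM in 3-week replicates (log2 change 1.63 ± 0.21 SE, edgeR adjusted p = 0.00221). Tmem173, the cytosolic DNA sensor adaptor STING, had 342, 328, 292 and 272 CPM in embryonic and 1439, 1378 and 1548 CPM in 3-week replicates (log2 change 2.24 ± 0.12 SE, edgeR adjusted p = 6.68e-05). In all 3 genes the lowest value of 3 weeks was above the highest embryonic value. Lbp, which binds lipopolysaccharide, was the gene that fell, from 2842 reads in the embryonic samples together to none at 3 weeks.

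Stress and hormone-responsive genes rose in part. Of 21 immediate early and stress genes, 5 rose and none fell, among them Sgk1, a kinase induced by glucocorticoids, with 460.0, 184, 234 and 248.93 CPM in embryonic and 1928, 1833 and 1949 CPM in 3-week replicates (log2 change 2.76 ± 0.28 SE, edgeR adjusted p = 5.48e-04), and Zfp36, which destabilises messages of cytokines, with 71.2, 60.1, 101 and 69.6 CPM in embryonic and 186, 178 and 253 CPM in 3-week replicates. The glucocorticoid list had 6 rises and 3 falls of 14. Nr3c1, the glucocorticoid receptor itself, had 87.3, 62.7, 61.2 and 52.1 CPM in embryonic and 257, 181 and 240.1 CPM in 3-week replicates (log2 change 1.78 ± 0.24 SE, edgeR adjusted p = 0.00228), and Tsc22d3, its classical target GILZ, had 53.7, 70.1, 46.3 and 37.7 CPM in embryonic and 151, 166 and 227 CPM in 3-week replicates (log2 change 1.80 ± 0.27 SE, edgeR adjusted p = 0.00468). Of the genes that fell, Mt1, a metallothionein that zinc also induces, had 115, 142, 144 and 171 CPM in embryonic and 21.2, 17.9 and 12.4 CPM in 3-week replicates (log2 change -3.06 ± 0.30 SE, edgeR adjusted p = 5.20e-04), and Angptl4, an inhibitor of lipoprotein lipase, had 45.5, 28.8, 31.6 and 34.6 CPM in embryonic and 0.0699, 0 and 0 CPM in 3-week replicates. Angptl4 had 2018 embryonic reads and 1 read at 3 weeks, a ratio of CPM of 1419 (95% counting interval 254 to 56062). Of 15 circadian genes tested by edgeR none was called, 2 rose at an unadjusted p under 0.05, and DESeq2 called 1. The time of day of collection is not given in the sources used here.

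Adhesion, matrix and transport genes moved in both directions. Adhesion and guidance had 4 rises and 5 falls of 27, matrix and proteases 4 and 2 of 23, and channels and transporters 6 and 2 of 26. Csmd3, a large membrane protein of the complement-control type, had 2.59, 4.81, 21.4 and 8.78 CPM in embryonic and 642, 661 and 647 CPM in 3-week replicates (log2 change 6.12 ± 0.64 SE, edgeR adjusted p = 7.17e-04), and F11r, the junctional protein JAM-A, had 563, 427, 498 and 392 CPM in embryonic and 1202, 1101 and 1124 CPM in 3-week replicates (log2 change 1.28 ± 0.14 SE, edgeR adjusted p = 8.69e-04). Serpinf1, the secreted factor PEDF, had 46.0, 21.9, 50.7 and 30.5 CPM in embryonic and 336, 446 and 817 CPM in 3-week replicates (log2 change 3.84 ± 0.38 SE, edgeR adjusted p = 5.34e-04), with 3-week replicate 3 highest. Col27a1, a fibrillar collagen, had 156, 157 and 199 CPM in 3-week replicates and was 6.78-fold higher than in embryonic samples (log2 change 2.76 ± 0.24 SE, edgeR adjusted p = 2.34e-04). Outside the lists, Pmp22, a membrane protein known from myelin, had 39.1, 18.6, 16.7 and 48.7 CPM in embryonic and 819.9, 1085 and 903 CPM in 3-week replicates (log2 change 4.93 ± 0.39 SE, edgeR adjusted p = 2.13e-04), while the summed myelin and oligodendrocyte markers were 291 to 486 CPM in embryonic samples and 411 to 472 CPM at 3 weeks and overlapped. Emilin1, an elastic fibre protein, fell with 205, 226, 183 and 143 CPM in embryonic and 9.58, 5.14 and 5.43 CPM in 3-week replicates (log2 change -4.81 ± 0.35 SE, edgeR adjusted p = 1.15e-04), and its reads were found in 88 of 158 embryonic cells, 6 of 171 cells of 3 weeks and 2 of 28 blank wells.

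Some falls ended at no reads at all. Cybb, the catalytic subunit of the phagocyte NADPH oxidase, had 156, 31.8, 95.3 and 8.37 CPM in the embryonic replicates and no read in any sample of 3 weeks. Against a floor of 3 counts over the group its reads were at least 981-fold lower. Reads are PCR copies and not independent molecules, so this floor bounds reads and not the change in RNA. The reads of Cybb came from 14 of 158 embryonic cells, and Cybb lost its call in the fit without cycling cells. Genes with no read at 3 weeks passed the filter on low counts through their embryonic values alone. Emid1, an extracellular protein, had 32.8, 77.4, 40.5 and 57.2 CPM in embryonic samples and no read at 3 weeks. Its reads were at least 694-fold lower against the same floor and came from 38 of 158 embryonic cells. Plxnc1, a semaphorin receptor, had 831 embryonic reads and 1 read at 3 weeks (ratio of CPM 584, 95% counting interval 105 to 23102). For Cybb, Emid1 and Plxnc1 the 171 cells of 3 weeks had no read at 40000 reads per cell, nor had the blank wells. The embryonic values of Cybb ranged widely, with replicates 2 and 4 far below replicates 1 and 3.

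Markers of border macrophages, the macrophages of meninges and vessels, summed to higher levels in the embryonic samples. Their summed level was 363 to 447 CPM in embryonic samples and 105 to 171 CPM at 3 weeks, at both ages mostly from Stab1. Of the 14 markers, 5 passed the filter on low counts and 3 of these fell. Stab1, a scavenger receptor, had 359, 246, 262 and 298 CPM in embryonic and 150.3, 102 and 135 CPM in 3-week replicates. Mrc1, which encodes CD206, one of the proteins stained for the sort, had 56.9, 87.3, 75.4 and 102 CPM in embryonic and 0, 0.0756 and 5.83 CPM in 3-week replicates, and its reads were found in 25 of 158 embryonic cells and 1 of 171 cells of 3 weeks. Its adjusted p of 0.0485 (edgeR) was lost in all fits without 1 sample except that without 3-week replicate 3, with values up to 0.0984. Fcna, a ficolin, was at 9.91, 11.5, 13.6 and 23.1 CPM in embryonic samples and had no read at 3 weeks. Mrc1 and Fcna passed the filter on low counts through their embryonic values alone, so only a fall could be called in them. The other defining markers were near 0: Lyve1 and Clec10a had no embryonic read, and Pf4, Cbr2, F13a1, Cd209f, Ms4a7, Folr2, Cd163 and Colec12 averaged below 4 CPM. Siglec1 averaged 3.77 CPM in embryonic samples and 7.01 CPM at 3 weeks and was not called. The part of such cells in the falls described above was not tested.

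Markers of other cells gave 2 further calls. Ighm, the immunoglobulin heavy chain M, had 1362, 1211, 1000.2 and 1126 CPM in embryonic and 413, 435 and 494 CPM in 3-week replicates (log2 change -1.39 ± 0.14 SE, edgeR adjusted p = 5.30e-04), whereas Cd79a and Igkc, which mark B cells, had no embryonic read and averaged 5.05 and 13.8 CPM at 3 weeks. The part of the B cell list in other results was not tested. Stmn2, a neuronal protein, had 1.36, 16.8, 7.22 and 6.45 CPM in embryonic samples and no read at 3 weeks. Its adjusted p of 0.0288 (edgeR) was lost in all fits without 1 sample except that without embryonic replicate 1, with values up to 0.0687. The summed neuron markers were 33.6 to 57.0 CPM and 19.4 to 35.3 CPM and overlapped. No marker of monocytes, astrocytes, oligodendrocytes and their precursors, Schwann cells, endothelium, mural cells or erythroid cells was called by edgeR. At an unadjusted p under 0.05, 1 of these, an oligodendrocyte marker, was higher at 3 weeks, and DESeq2 called 1 oligodendrocyte marker.

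Cerebellum is the other region sampled at both ages, and the difference between the changes of the regions was tested directly. It passed the threshold for 15 of 15828 genes (0.0948%), in all 15 with the spinal cord change above that of cerebellum. In 12 of the 15, which act in mitosis or in DNA replication and repair, cerebellum of 3 weeks had 0 to 14 reads in all, so that its fall was steeper. Tacc3, a protein of the mitotic spindle, had 180.2, 144, 133 and 192 CPM in embryonic spinal cord and 24.3, 31.5 and 45.2 CPM at 3 weeks, on the scale of all 51 region samples. In cerebellum it had 157, 121, 50.4 and 119.9 CPM in embryonic samples and no read at 3 weeks (difference of the log2 changes 11.36 ± 0.93, edgeR adjusted p = 0.00022). Of the reads of Tacc3 in spinal cord of 3 weeks, 64.5% came from the 5 cycling cells of that age. Over the 12 genes this share ranged from 34.5% in Spc24 and 55.3% in Ncapd2 to 100% in Ankle1, and it was 0% in Zfp449 and Abhd4. Cycling cells were chosen for their reads of G2/M genes, so high shares of mitotic genes in them partly follow from that choice. The part of cycling cells in the difference between regions was not tested. Cerebellum of 3 weeks had no cycling cell among the 60, 50 and 35 cells of its replicates at equal depth. Hippocampus of 3 weeks had none either. Cortex and corpus callosum of 3 weeks each had 1, in replicate 2. Without cycling cells edgeR called none of the 14967 genes tested for this difference, 1234 had an unadjusted p under 0.05, and DESeq2 on all cells called 272. The loss of calls of mitotic genes without cycling cells is in part fixed by the choice of cells and is no test. The size of the fitted difference depends on the prior count where a group has no read.

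Ccl9, a chemokine of the CC family (chr11:83572919-83578636), had reads in all 4 groups. It had 129.7, 65.7, 135 and 117 CPM in embryonic spinal cord and 420.1, 251 and 206 CPM at 3 weeks, and in cerebellum 316, 348, 431 and 464 CPM and then 183, 164 and 199.8 CPM. The values thus went up in spinal cord and down in cerebellum, without overlap between the ages in either region (difference 2.41 ± 0.37 on the log2 scale, edgeR adjusted p = 0.0231). Its rise in spinal cord alone (adjusted p = 0.0241) was lost without embryonic replicate 1 or 4 and without 3-week replicate 1 or 2, with values up to 0.0899. It was also lost without cycling cells (adjusted p = 0.105), with the counts as deposited (0.0615), with spinal cord of 16 weeks in the same fit (0.157) and with the replicate block (0.0652). Its difference between the regions was not called without cycling cells either. Cycling cells gave 1.07% of its reads in spinal cord of 3 weeks, and its reads lay in 103 of those 175 cells. Abhd4, a lipase, had 107 to 172 CPM in spinal cord and 76.0 to 78.5 CPM in cerebellum at 3 weeks, against 192 to 238 and 285 to 435 CPM in embryonic samples. The 3-week groups of the regions lay on different plates. The count of 15 was 5 to 18 with 1 sample left out, lowest without cerebellum of 3 weeks replicate 1.

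**Figure D5:**
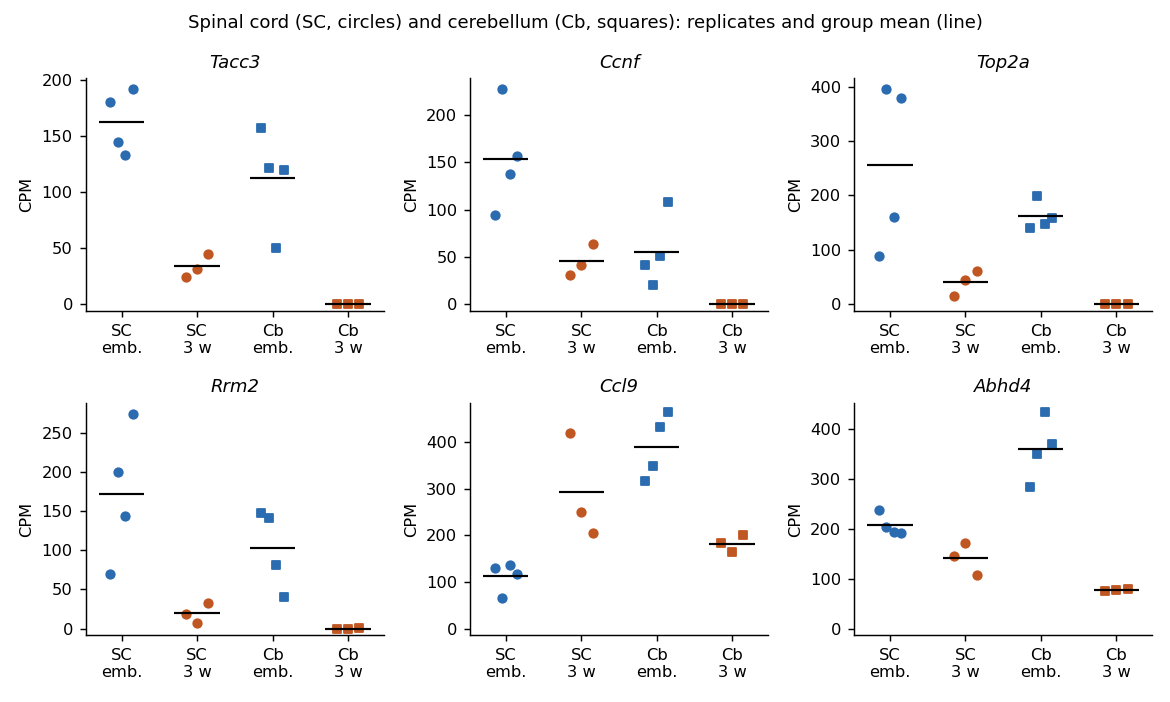
CPM of 6 genes in embryonic and 3-week spinal cord (SC, circles) and cerebellum (Cb, squares), 1 point per replicate and a line at each group mean, on the scale of all 51 region samples. Tacc3, Ccnf, Top2a and Rrm2 are near 0 in the 3 cerebellum samples of 3 weeks, and Ccl9 is higher at 3 weeks in spinal cord and lower in cerebellum.

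Across the series, 119 of the 442 rises (26.9%) had all 15 region samples of 3 weeks above all 16 embryonic ones, and 39.4% of the 551 falls had all of them below. Of all genes tested, 1.01% and 2.30% were so separated. These region samples include the 7 of spinal cord that chose the genes. Among the 24 region samples other than spinal cord alone, 123 rises (27.8%) and 243 falls (44.1%) were separated in this way. Of all genes tested, 1.13% and 3.00% were so separated in these samples. None of the 993 was separated in the opposite direction. Of the other groups, only embryonic cerebellum shared a plate with the spinal cord samples compared here. No plate held both embryonic cells and cells of 3 weeks. The other regions may share mice with spinal cord, so these counts are a description.

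Per length, the most abundant transcripts changed in rank. In embryonic cells Apoe led with 8348 CPM per kilobase, followed by Cst3 with 5931, Actb with 5898 and the ribosomal RNA copy Rn18s-rs5 with 5349. At 3 weeks Cst3, a secreted inhibitor of cathepsins, led with 27501 CPM per kilobase, and Ctss had 8410 (means over samples). P2ry12 stood at rank 5 with 4184 CPM per kilobase, whereas Apoe had 1457. Rn18s-rs5 stands for a repeated sequence whose copies cannot be told apart.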

How the data were processed

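Smart-seq2 libraries of single sorted wells were analysed. The deposited values are whole-number counts of reads per gene and well, made by the authors with STAR 2.5.2b, featureCounts 1.6.2 and the genome build GRCm38, per the submitters' processing notes. Other settings are not given in the sources used here. Wells of plate columns 1 and 2 held, as deposited, the sum of their own reads and those of same-plate wells whose names start alike, so the counts of those wells were subtracted (224 wells, with 0 of 2095843 gene values below 0). Wells with at least 500 genes and at most 20% mitochondrial counts were kept and summed per replicate label. Spike-ins were left out of library sizes. Each kept region sample of spinal cord at these ages held 12744518 to 15395067 counts.

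Ages were compared with edgeR 4.0.16 (quasi-likelihood test, TMM, filterByExpr by group, R 4.3.3) on the 7 samples, and the regions with an interaction term over spinal cord and cerebellum, all p-values being adjusted over all genes tested. Measures of cells were tested with exact two-sided permutation tests. DESeq2 1.42.0 was an alternative. On simulated counts of the spinal cord comparison (12313 genes), 5 of 100 changes of 2-fold and 59 of 100 of 4-fold were recovered, with 4 false calls. Each simulated gene was given the dispersion of the trend over all genes, so these shares are no general power for the real genes.

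The members and the gene lists were chosen with earlier results of these data known. Genes are named by rule: the 12 rises and 12 falls with the smallest p and the 12 of each with the largest change at 50 CPM or more, up to 4 called members of each list with the largest change and members that define a list, up to 10 interaction genes, and the 10 most abundant genes per kilobase. Other list members (Abca1, Abcg1, Arpc2, Capzb, Cd9, Cdk1, Cebpa, Csf3r, Cx3cr1, Elmo1, F11r, Ifngr1, Irf5, Klf3, Klf6, Lamp1, Lpl, Lyz2, Mcm6, Mertk, Mki67, Nr3c1, Sall1, Scd2, Tlr13, Top2a, Tsc22d3, Zeb2) were added with their values known. Promoter sequences are from RefSeq (GRCm38.p6). A few genes are not reported here.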

Additional observations from a re-analysis of the deposited data

Results flagged for a closer look

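In 8 of 195 groups of 4 embryonic values, 1 replicate stood apart from the other 3 by Dixon's criterion, which chance alone meets in about 1 of 20 groups. Replicate 3 was the highest for Rn18s-rs5 (18582 CPM), Eef1b2 (613 CPM), Msmo1 (63.2 CPM) and Tmem204 (0.873 CPM). Replicate 4 was the highest for Plin2 (656 CPM) and Cd22 (0.0686 CPM), and replicate 1 for Il6ra (305 CPM). Replicate 2 was the lowest for Il1a (35.3 CPM).

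The change with age differed between spinal cord and cerebellum in 15 genes by the interaction test of edgeR. The difference of the log2 changes, spinal cord minus cerebellum, was 11.36 for Tacc3, 10.44 for Fignl1, 10.21 for Cdc20, 10.11 for Fam64a, 10.06 for Aurkb, 9.42 for Ankle1, 9.26 for Aurka, 8.96 for Spc24, 8.69 for Ccnf, 8.51 for Ncapd2, 7.74 for Zfp449, 6.46 for Rrm2, 5.88 for Top2a, 2.41 for Ccl9 and 1.61 for Abhd4. In 8 of them cerebellum of 3 weeks had no read, so the size depends on the prior count and is no bound.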

How the results depend on the processing

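The count of 993 genes changed with age stayed within 1.5 times under RLE scaling, total counts, the counts as deposited, thinning, other well filters and without plate columns 1 and 2. DESeq2 called 2176, and 1474 were called with no filter on low counts, against 563 to 788 without 1 replicate, 538 without cycling cells, and 536 (55.2% rises) with spinal cord of 16 weeks in the same fit (an alternative chosen after seeing the data). With the replicate block, 406 genes changed with age and 2 differed between regions. The deviations of same-numbered samples correlated by -0.011 to 0.0026 between the ages and by 0.0054 to 0.036 between the regions, so the numbers were not taken to pair samples, although each 3-week sample of spinal cord correlated best with its own number in cerebellum. The 15 genes that differed between regions became 272 with DESeq2, 50 with no filter, 9 with the counts as deposited, 3 without plate columns 1 and 2, 0 without cycling cells (also chosen after seeing the data) and 5 to 18 without 1 replicate. Ccnf and Ncapd2 turned to log2 changes of 2.45 and 0.23 without cycling cells.

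The age difference was -20.9 percentage points of cycling cells when 8 of the 20 genes were required (exact permutation p = 0.0571), -238 genes detected with the counts as deposited (exact permutation p = 0.771) and -274 counts per spike-in count from summed counts (exact permutation p = 0.0571). Without 1 replicate, these differences ranged from -31.6 to -26.0 percentage points, from -885 to -779.5 genes, from -405 to -339 counts per spike-in count, and from -1.66 to -1.15 percentage points of mitochondrial counts. Those smaller designs cannot reach p under 0.05, so they say nothing about the test. Of 184 named and called genes, 132 were called in all 7 fits without 1 sample, 14 were lost in 1 to 3 and 38 in 4 or more. In the simulated counts, with 3 to 4 samples per age, changes of 2-fold were mostly missed. In the real data 350 of the 442 rises and 459 of the 551 falls were of 2-fold or more, so smaller changes were also called.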
